A study of Mus musculus with 18 samples.

Results

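The 9 genes described here handle iron in the macrophage: Fth1, Ftl1, Slc40a1, Hmox1, Tfrc, Slc11a1, Slc11a2, Steap3 and Steap4. They were chosen by symbol as genes of iron storage, uptake and export, and all 9 were found among the 23052 gene symbols of each of the 2 count tables. The cells were bone marrow-derived macrophages of C57BL6/J wild type mice, differentiated over 7 days in a mixture of 80% DMEM, with serum, and 20% medium conditioned by L929 cells, and their total RNA was sequenced. One table holds 12 libraries of endotoxin-tolerant macrophages, 4 each with glutamine, without glutamine, and without glutamine but with alpha-ketoglutarate (AKG, a metabolite that cells can make from glutamine). The other table holds 6 libraries, 2 each from control macrophages and from macrophages given IL-4 or LPS for 6 h. The tolerant groups all share the tolerance treatment, and no untreated library stands in their table, so what tolerance does cannot be read from it. The labels give neither the tolerance protocol nor the AKG dose, nor whether replicates are separate mice or cultures, so p-values measure only the spread between these libraries.

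Macrophages recycle most of the body's iron by digesting old red cells. Hmox1 (haem oxygenase) frees iron from haem. Ferritin, a shell of heavy (Fth1) and light (Ftl1) chains, stores it, and ferroportin (Slc40a1) is the only known exporter of iron from the cell. Tfrc takes up iron bound to transferrin. Steap3 and Steap4 reduce iron so that it can cross membranes, and Slc11a1 (NRAMP) and Slc11a2 (DMT) carry it out of phagosomes and endosomes. C57BL6 mice are known to carry a Slc11a1 allele whose protein does not function, so for this gene the counts are of an mRNA only. Iron-regulatory proteins bind hairpins called iron-responsive elements when iron is low: in a 5′ UTR this blocks translation, and in the Tfrc 3′ UTR it protects the mRNA. A change of ferritin protein can therefore occur without a change in the mRNA counted here.

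Those hairpins separate the 9 genes into classes that the choice of genes did not use, and are shown for that reason. The UTRs of GENCODE vM21 (GRCm38, the build of the deposited counts) were searched on the transcribed strand for a C, 5 bases of any kind and the loop CAGTGN, followed by 5 bases that pair with the 5 before the loop. Sites are printed 5′ to 3′ on that strand, with the loop in capitals. The 3 sites in 5′ UTRs were Fth1 (chr19:9982732-9982761, plus strand), Ftl1 (chr7:45459778-45459807, minus strand) and Slc40a1 (chr1:45925464-45925493, minus strand).
Fth1: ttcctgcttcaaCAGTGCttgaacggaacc
Ftl1: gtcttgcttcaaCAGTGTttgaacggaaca
Slc40a1: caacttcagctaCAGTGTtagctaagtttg
The Tfrc 3′ UTR held 4 sites on the plus strand, at chr16:32631219-32631248, chr16:32631598-32631627, chr16:32631663-32631692 and chr16:32631710-32631739.
Tfrc site 1: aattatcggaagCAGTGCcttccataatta
Tfrc site 2: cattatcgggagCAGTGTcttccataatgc
Tfrc site 3: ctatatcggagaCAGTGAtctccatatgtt
Tfrc site 4: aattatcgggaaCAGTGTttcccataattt
By the same rule 31 of 20045 genes with a 5′ UTR (0.155%) and 129 of 20831 with a 3′ UTR (0.619%) had a site. Hmox1, Slc11a1, Slc11a2, Steap3 and Steap4 had none. This says only that no site of this strict form lies in their annotated UTRs; one form of the Slc11a2 transcript is known to carry a less regular element.

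In GRCm38 coordinates Fth1 lies at chr19:9980598-9985098, Ftl1 at chr7:45457944-45459884, Slc40a1 at chr1:45908068-45926523 and Hmox1 at chr8:75093621-75100589. Tfrc lies at chr16:32608920-32632794, Slc11a1 at chr1:74375195-74386062, Slc11a2 at chr15:100387898-100425072, Steap3 at chr1:120190757-120272705 and Steap4 at chr5:7960457-7982213. No source used here says whether the authors' counting used strand. How reads were counted where Ftl1 overlaps Gm10252 on the other strand, or Slc11a2 overlaps Gm5475, is therefore not known. Ftl1 also overlaps the miRNA gene Gm22133, on the same strand. Beside Fth1 and Ftl1, 14 annotated genes and pseudogenes have symbols that begin with Fth or Ftl. The 6 of these that are rows of the tables are Fthl17a to Fthl17f. Copies under other symbols were not searched for. The ferritin counts therefore carry an uncertainty for reads shared between copies.

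The tolerant libraries totalled 28302158 to 37834680 counts each, and the stimulation libraries 34227368 to 39760356. The 9 macrophage markers summed to between 27174 and 47446 CPM (a gene's counts relative to the library's total as scaled by edgeR's TMM, in the field's usual unit) in the 18 libraries, and all were above 0. The 8 erythroid markers, which bear on whether the haem and iron genes come from red cell precursors, summed to at most 0.764 CPM, with Hbb-bs at 0 in every group. In the tolerant set, replicates 3 and 4 stood apart from replicates 1 and 2 in every group, a grouping seen in the data and not in the labels. Results from that table are therefore also given within each pair of replicates or with the replicate number as a block in the model. Since the pairs were seen in these same data, p-values within a pair or between pairs are descriptions only.

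Ferritin dominated. Its 2 chains together took 1.22 to 5.40% of all counts in a library. Per kilobase of annotated exon the with-glutamine tolerant libraries had 7622 ± 2399 CPM per kb of Fth1 and 3579 ± 396 of Ftl1 (SD, n = 4). Hmox1 followed at 539 ± 188 CPM per kb, then Slc11a1 at 137 ± 3.59, Tfrc at 64.8 ± 11.5 and Slc11a2 at 17.0 ± 2.31. Steap3 at 12.2 ± 5.25 and Slc40a1 at 9.58 ± 3.64 CPM per kb were last among the well-measured members, and their ranges overlapped. Steap4 was at 0.0796 ± 0.0677 CPM per kb. On this scale of level, storage transcripts stood far above those of the exporter and the reductases in the same libraries. Exons of all transcripts were merged for the length. With the longest transcript in its place, the ratio of Fth1 to Ftl1 per length was 3.57 in place of 2.13, and Slc40a1 came before Slc11a2 and Steap3.

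Across the stimulation groups the members moved more than in the tolerant set, and so did all genes. The median absolute log2 fold change over all genes was 0.26 to 0.59 here and 0.094 to 0.15 in the tolerant comparisons. Table and condition cannot be told apart between the 2 sets. After LPS, 5 of 9 members rose and 3 fell, against 52.1% of all 12506 tested genes called (22.8% higher, 29.3% lower; edgeR's quasi-likelihood test, Benjamini-Hochberg adjusted p under 0.05). After IL-4, 5 fell and none rose, against 20.1% of genes called (9.66% higher, 10.5% lower). Between IL-4 and LPS, 2 members were higher and 5 lower with IL-4, against 53.1% of genes called (29.7% higher, 23.4% lower). With the replicate block 48.3% of genes were called with LPS, 15.7% with IL-4 and 48.8% between them, and 8, 4 and 7 members. In each of these comparisons the 2 groups did not overlap for 8 of 9 members, as for 74.5%, 58.3% and 80.3% of all genes. The median log2 fold change over the members was 0.94 with LPS, beside -0.095 over all genes, and with IL-4 it was -0.46 beside -0.039; neither changes with Steap4 at its count floor. The 2 stimuli are set against the same 2 control libraries, so these comparisons are not independent of each other.

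The heavy chain of ferritin, Fth1, stood at 17127 and 12453 CPM in the control libraries, at 32595 and 30145 with LPS and at 6575 and 6981 with IL-4. The 3 groups did not overlap, with LPS on top and IL-4 at the bottom. Fth1 rose with LPS by a log2 fold change of 1.08 (SE 0.17, edgeR adjusted p = 0.00315) and fell with IL-4 by 1.13 (SE 0.17, edgeR adjusted p = 0.00779). IL-4 and LPS libraries differed by -2.21 (SE 0.18, edgeR adjusted p = 0.000203), a 4.63-fold lower level with IL-4.

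The light chain, Ftl1, which lacks the heavy chain's iron-oxidising activity, did not follow. Its control libraries stood at 6215 and 5475 CPM, LPS at 4319 and 4001, and IL-4 at 4259 and 4252. Both stimuli lay below the control, and they overlapped each other. Ftl1 was called lower with LPS (log2 fold change -0.49, SE 0.11, edgeR adjusted p = 0.0128) and with IL-4 (-0.46, SE 0.11, edgeR adjusted p = 0.0381). Both are weak calls. With the replicate block the edgeR adjusted p for IL-4 was 0.0699, and with RLE scaling that for LPS was 0.0612. Leaving out control replicate 1 left -0.30 for LPS (edgeR adjusted p = 0.0838) and -0.28 for IL-4 (edgeR adjusted p = 0.164). The IL-4 call was also lost with RLE scaling (edgeR adjusted p = 0.0837), with the 2 groups fitted alone (edgeR adjusted p = 0.137), and without IL-4 replicate 1 (edgeR adjusted p = 0.213) or 2 (edgeR adjusted p = 0.215). For LPS the call was also lost without LPS replicate 1 (edgeR adjusted p = 0.0508) or LPS replicate 2 (edgeR adjusted p = 0.0873).

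The counts of Fth1 per count of Ftl1 show the unequal response of the chains within each library. They were 2.76 and 2.27 in control macrophages, 7.55 and 7.53 with LPS and 1.54 and 1.64 with IL-4. LPS libraries nearly coincided and lay above every other stimulation library, and IL-4 libraries lay below. This count ratio is free of the scaling between libraries. In control cells, whether Fth1 or Ftl1 is the more abundant depends on the length used: per kilobase the levels were 4263 ± 953 and 4362 ± 391 CPM with merged exons (SD, n = 2), and 9899 ± 2212 and 6039 ± 541 with the longest transcript.

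**Figure D1:**
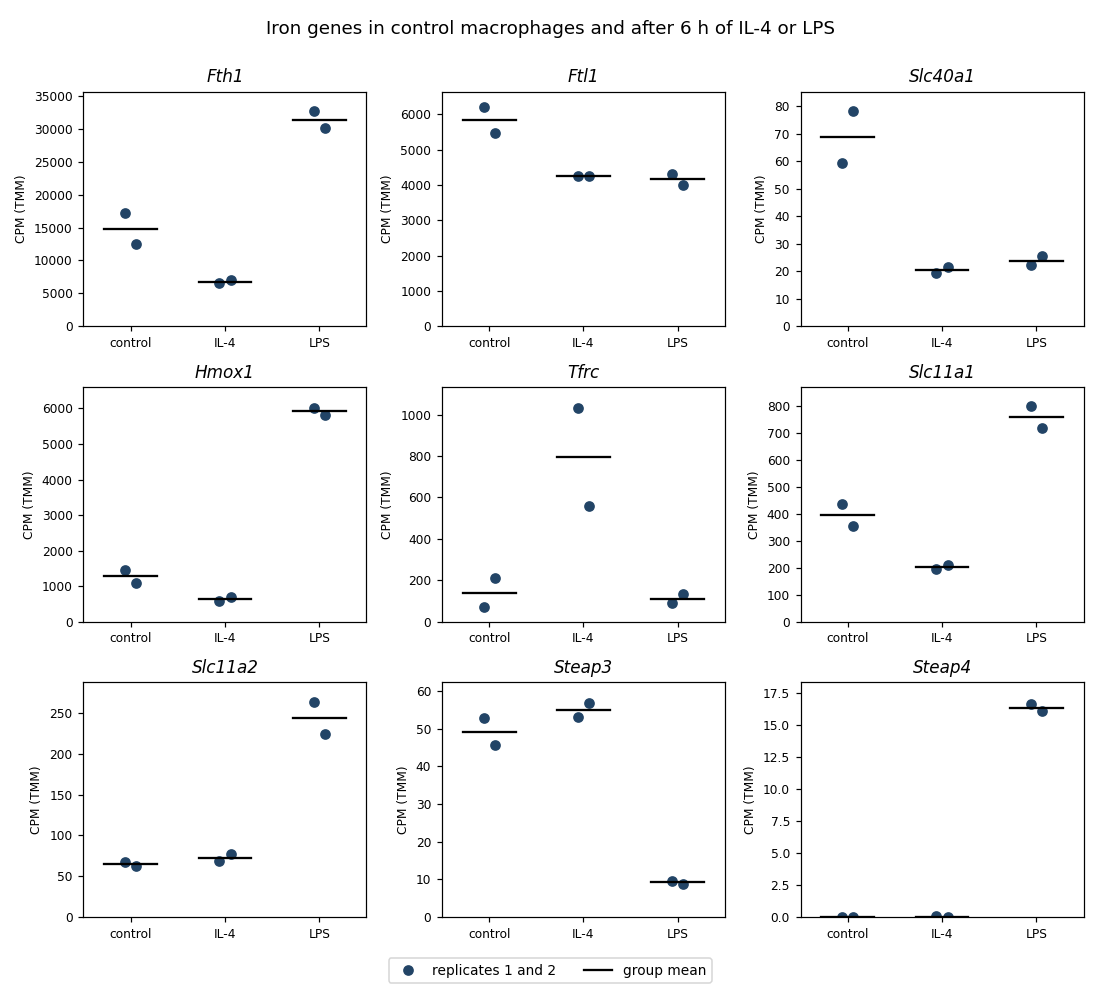
CPM (y axis, TMM-scaled, from 0) of the 9 iron genes in control macrophages and macrophages given IL-4 or LPS for 6 h (x axis); points are libraries, 2 a group, and bars are group means. Hmox1 in LPS libraries stood at 6015 and 5815 CPM, above all others, and Tfrc was highest in the 2 IL-4 libraries, at 1031 and 559.7 CPM.

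Hmox1, the enzyme that opens the haem ring and releases its iron, gave the same order as Fth1 with a wider span. It stood at 1467 and 1092 CPM in control libraries, 6015 and 5815 with LPS, and 594 and 688 with IL-4. No group overlapped another. The log2 fold change was 2.21 with LPS (SE 0.17, edgeR adjusted p = 0.000208) and -0.997 with IL-4 (SE 0.17, edgeR adjusted p = 0.0107), and IL-4 was 9.22-fold lower than LPS (edgeR adjusted p = 5.71e-05).

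Of the calls with IL-4, those of Fth1 and Hmox1 needed both IL-4 libraries and that of Slc11a1 needed replicate 1. Without IL-4 replicate 1 the edgeR adjusted p was 0.0681 for Fth1, 0.0888 for Hmox1 and 0.0579 for Slc11a1. Without IL-4 replicate 2 it was 0.0546 for Fth1 and 0.0517 for Hmox1. Their log2 fold changes over all 4 omissions stayed between -1.34 and -0.69, and the 3 calls held without either control library.

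The exporter Slc40a1 fell with both stimuli. Control libraries had 59.5 and 78.3 CPM, LPS 22.2 and 25.4, and IL-4 19.4 and 21.6. Both stimulated groups lay well below the controls, and between them IL-4 lay slightly lower. Ferroportin mRNA fell 2.90-fold with LPS (log2 fold change -1.53, SE 0.17, edgeR adjusted p = 0.00067) and 3.37-fold with IL-4 (-1.75, SE 0.17, edgeR adjusted p = 0.0015). The call held in all 11 other fits and omissions for each stimulus. The difference between IL-4 and LPS was -0.22 (95% interval -0.74 to 0.30), which did not pass the test (edgeR adjusted p = 0.31). Of the members called with both stimuli, Fth1, Hmox1 and Slc11a1 moved in opposite directions, whereas Slc40a1 and, by less, Ftl1 fell with each.

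Tfrc, the transferrin receptor, spread widely within the control and IL-4 groups. The control libraries had 71.1 and 209.7 CPM, LPS 90.5 and 133.4, and IL-4 1031 and 559.7. IL-4 libraries were the highest and did not overlap the others, while the LPS libraries fell between the 2 controls. The log2 fold change with IL-4 was 2.502 (SE 0.64, 5.66-fold), which missed the threshold in edgeR (adjusted p = 0.057) and passed it in DESeq2 (adjusted p = 0.00187) and limma-voom (adjusted p = 0.0265). Against LPS, Tfrc was called higher with IL-4, by 2.83 (SE 0.64, edgeR adjusted p = 0.0185), a call lost with no filter on low counts (edgeR adjusted p = 0.0594) and without LPS replicate 1 (edgeR adjusted p = 0.118), LPS replicate 2 (edgeR adjusted p = 0.0791) or IL-4 replicate 1 (edgeR adjusted p = 0.0614). For LPS against control the value was -0.33, with a 95% interval from -2.25 to 1.60 (edgeR adjusted p = 0.686), and without control replicate 2 it was 0.65.

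Set against each other, exporter and importer separated IL-4 from the control and LPS libraries. The log2 ratio of Slc40a1 to Tfrc counts averaged -0.84 ± 0.82 in control libraries, -2.21 ± 0.26 with LPS and -5.22 ± 0.73 with IL-4 (SD, n = 2). The highest IL-4 value was -4.70, below the lowest value of the control and LPS libraries, -2.39. The lowest tolerant value was -3.02, but those libraries are in the other table, so table and condition cannot be told apart there.

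**Figure D2:**
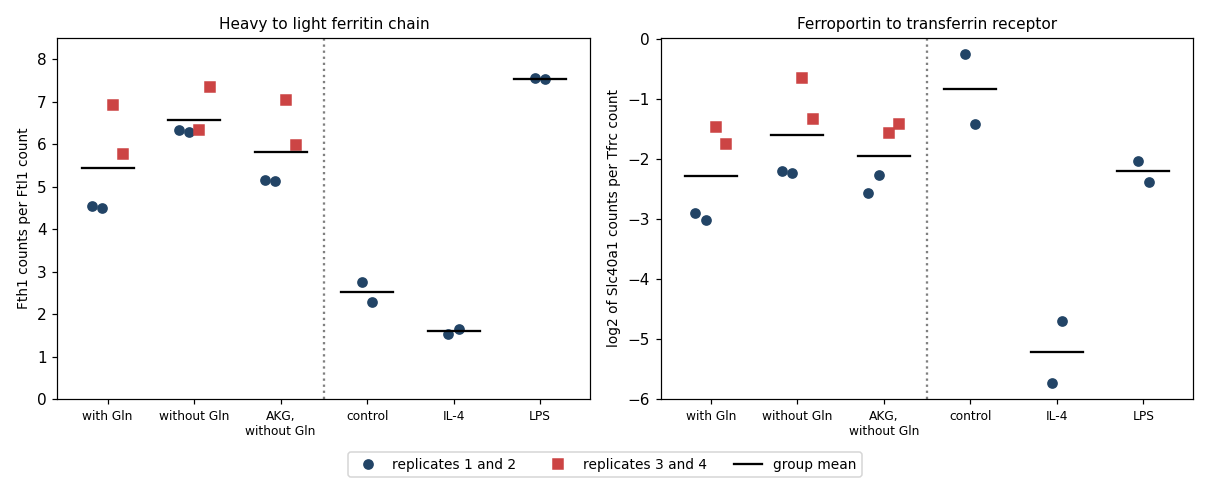
Ratios of counts within each library (points) and group means (bars) in the 6 groups, with a dotted line between the tables: left, Fth1 counts per Ftl1 count, and right, the log2 of Slc40a1 counts per Tfrc count. LPS and the tolerant libraries have Fth1 to Ftl1 ratios of 4.48 or more, controls and IL-4 of 2.76 or less, and IL-4 libraries have the lowest Slc40a1 to Tfrc ratios.

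The 2 transporters of the Slc11 family rose with LPS. Slc11a1, the phagosomal carrier, went from 436 and 354 CPM in controls to 797 and 718 with LPS, and stood at 195 and 209 with IL-4. It rose by 0.94 with LPS (SE 0.13, edgeR adjusted p = 0.00199) and fell by 0.97 with IL-4 (SE 0.13, edgeR adjusted p = 0.00536), so its order over the 3 groups was that of Fth1 and Hmox1. Slc11a2, which brings iron out of endosomes after transferrin uptake, stood at 67.7 and 62.5 CPM in controls, 263 and 223 with LPS and 68.1 and 77.5 with IL-4. It rose 3.74-fold with LPS (log2 fold change 1.90, SE 0.13, edgeR adjusted p = 0.00014). With IL-4 its difference was 0.16 (95% interval -0.25 to 0.57, edgeR adjusted p = 0.457).

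The 2 reductases moved in opposite directions with LPS. Steap3, the endosomal ferrireductase of the transferrin cycle, had 52.8 and 45.6 CPM in controls, 9.53 and 8.91 with LPS and 53.2 and 56.9 with IL-4. It fell 5.33-fold with LPS (log2 fold change -2.42, SE 0.12, edgeR adjusted p = 5.27e-05), and its difference with IL-4 was 0.16 (95% interval -0.20 to 0.52, edgeR adjusted p = 0.396). Steap4 had 0 counts in both control libraries, 477 and 459 with LPS, and 2 and 0 with IL-4. With 3 counts per library taken as the limit that a count of 0 allows, LPS libraries were at least 229-fold higher than controls (edgeR adjusted p = 0.000141), and over IL-4 the count ratio was 678 (95% interval 187 to 5609, counting error only). Per kilobase of exon, LPS was the one group with a higher level of Steap4 than of Steap3, at 5.17 ± 0.127 and 1.61 ± 0.0777 CPM per kb (SD, n = 2).

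**Figure D3:**
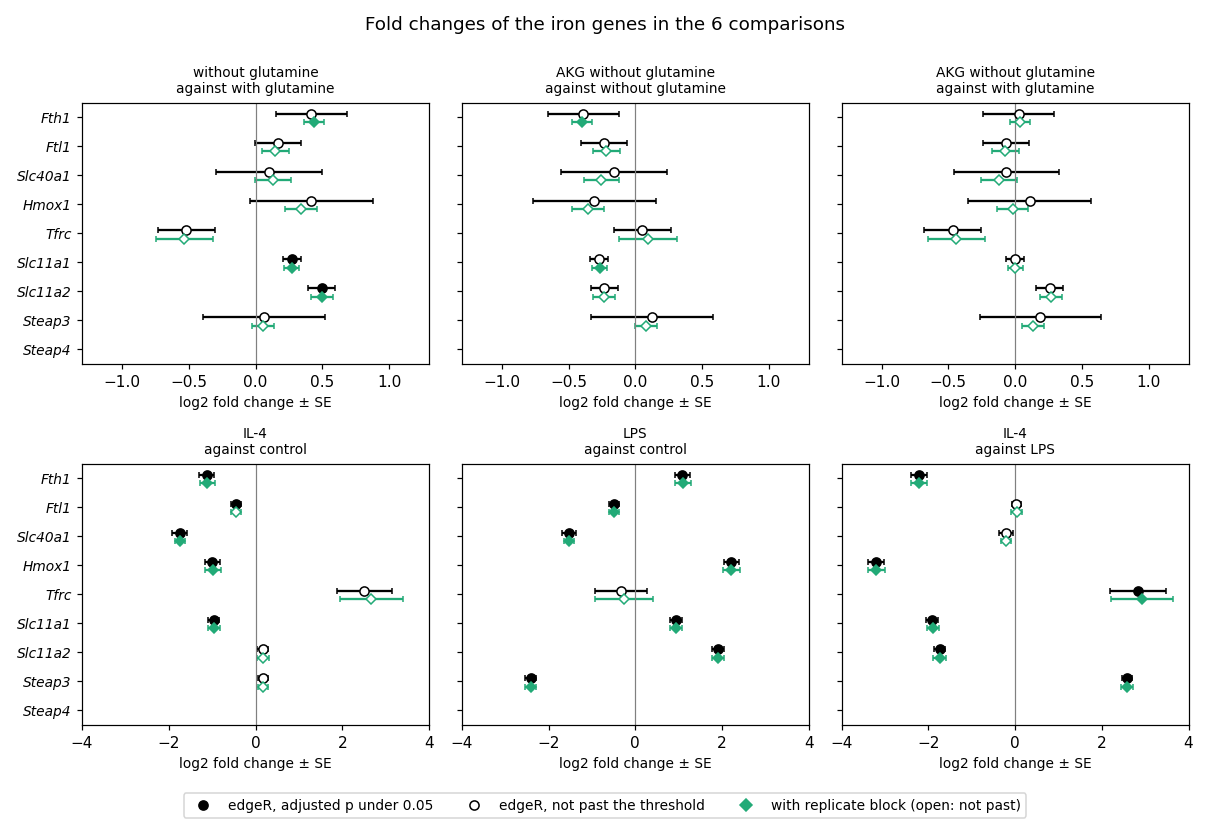
Log2 fold changes of the iron genes (x axis, first group over second, bars are ± SE) in the 6 comparisons, from edgeR (circles, filled where the adjusted p is under 0.05) and from edgeR with the replicate block (diamonds, filled likewise). Steap4 is left empty, since it did not pass the count filter over the 12 tolerant libraries and had groups at or near 0 counts elsewhere. The upper row spans -1.3 to 1.3 and the lower -4 to 4; in the tolerant set only Slc11a1 and Slc11a2 without against with glutamine passed without the block.

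In the tolerant set the members' counts were read against 4.7% of 12492 genes called without against with glutamine (2.3% higher, 2.4% lower), 1.49% for AKG against no AKG without glutamine (0.64% higher, 0.849% lower), and 0% for AKG against glutamine. Steap4 did not pass the filter on low counts over the 12 libraries, leaving 8 members. Of these, 2 rose without glutamine, 0 differed between AKG and no AKG, and 0 between AKG and glutamine, where no gene at all passed in edgeR, 916 genes had an unadjusted p under 0.05, and DESeq2 called 232 genes and 0 members. With the replicate block 21.7%, 15.3% and 7.01% of genes were called, and 3, 2 and 0 members. Groups did not overlap for 2, 1 and 0 of the 8, as for 12.4%, 9.1% and 5.57% of all genes. The median log2 fold change over the 8 members was 0.22, -0.23 and 0.014 in the 3 comparisons, beside -0.012, 0.0062 and -0.0019 over all genes. These 3 comparisons share libraries in pairs, so a rise in one and a fall in the next against the same without-glutamine libraries is not repeated evidence.

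Slc11a2 rose without glutamine. In replicates 1 to 4 it had 93.5, 100.3, 126.9 and 112.5 CPM with glutamine, 142.7, 150.6, 165.2 and 151.7 without, and 134.7, 116.0, 125.5 and 142.8 with AKG. Every library without glutamine lay above every library with it, and AKG libraries lay between and overlapped both. The rise was 1.41-fold (log2 fold change 0.49, SE 0.10, edgeR adjusted p = 0.021). Within replicates 1 and 2 it was 0.59 (edgeR adjusted p = 0.000298) and within 3 and 4 it was 0.43 (edgeR adjusted p = 0.0487). Leaving out 1 library kept the value between 0.43 and 0.59, with the adjusted p up to 0.0563 in edgeR, and the call was lost without replicate 1 or 2 with glutamine or replicate 2 or 3 without. With AKG the difference from no AKG was -0.23 (SE 0.10, edgeR adjusted p = 0.358), and that from glutamine 0.26 (SE 0.10, edgeR adjusted p = 0.534). Within replicates 1 and 2 both passed, at -0.23 (edgeR adjusted p = 0.0473) and 0.37 (edgeR adjusted p = 0.00987), and within 3 and 4 they were -0.23 (edgeR adjusted p = 0.304) and 0.19 (edgeR adjusted p = 0.48). With batch as a factor the difference from glutamine passed (0.27, edgeR adjusted p = 0.0489).

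Slc11a1 had the tightest groups. Its libraries had 491, 503, 523 and 509 CPM with glutamine, 585, 609.7, 668 and 581 without, and 496, 502, 496 and 532 with AKG. The lowest library without glutamine stood above the highest of both other groups. It rose 1.21-fold without glutamine (log2 fold change 0.27, SE 0.066, edgeR adjusted p = 0.0429). The fall with AKG was of the same size (-0.27, SE 0.066), with an edgeR adjusted p of 0.0765, and of 0.0131 with the replicate block. AKG and glutamine libraries differed by 0.00066 (95% interval -0.15 to 0.15). The call without glutamine was lost without any 1 of 7 libraries, all but replicate 4 without glutamine. Over the omissions the edgeR adjusted p ran up to 0.105 while the value stayed between 0.23 and 0.31. Within replicates 1 and 2 the rise was 0.26 (edgeR adjusted p = 0.00541) and within 3 and 4 it was 0.30 (edgeR adjusted p = 0.0974). The call held with the replicate block (edgeR adjusted p = 0.00878). It was lost with no filter (edgeR adjusted p = 0.0774) and with the 2 groups fitted alone (edgeR adjusted p = 0.129).

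Fth1 showed the same arrangement over a large difference between replicates. With glutamine it had 18584, 21225, 37059 and 28899.6 CPM, without glutamine 27187, 29936, 46251 and 37768, and with AKG 20294, 20770.2, 34377 and 32368. The groups overlapped, but within each replicate number the library without glutamine was the highest of the 3. Without the block no call was made (log2 fold change 0.42, SE 0.27, edgeR adjusted p = 0.482). With it Fth1 was 1.35-fold higher without than with glutamine (0.44, SE 0.075, edgeR adjusted p = 0.00305) and 1.32-fold lower with than without AKG (-0.40, SE 0.075, edgeR adjusted p = 0.00751). Within replicates 1 and 2 the rise was 0.52 (edgeR adjusted p = 0.00101) and within 3 and 4 it was 0.37 (edgeR adjusted p = 0.211).

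Ftl1 did not pass in any tolerant comparison, with or without the block. Its libraries had 4095, 4733, 5348 and 5007 CPM with glutamine, 4295, 4762, 7315 and 5145 without, and 3941, 4039, 4892 and 5417 with AKG. Replicate 3 without glutamine was the highest of the 12, and the groups overlapped. Fth1 counts per Ftl1 count averaged 5.43 ± 1.16 with glutamine, 6.57 ± 0.51 without and 5.82 ± 0.89 with AKG (SD, n = 4), all above the 2.51 ± 0.34 of the control macrophages and below the 7.54 of LPS. Tolerant and stimulated cells come from different tables, so table and condition cannot be told apart in that comparison.

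**Figure D4:**
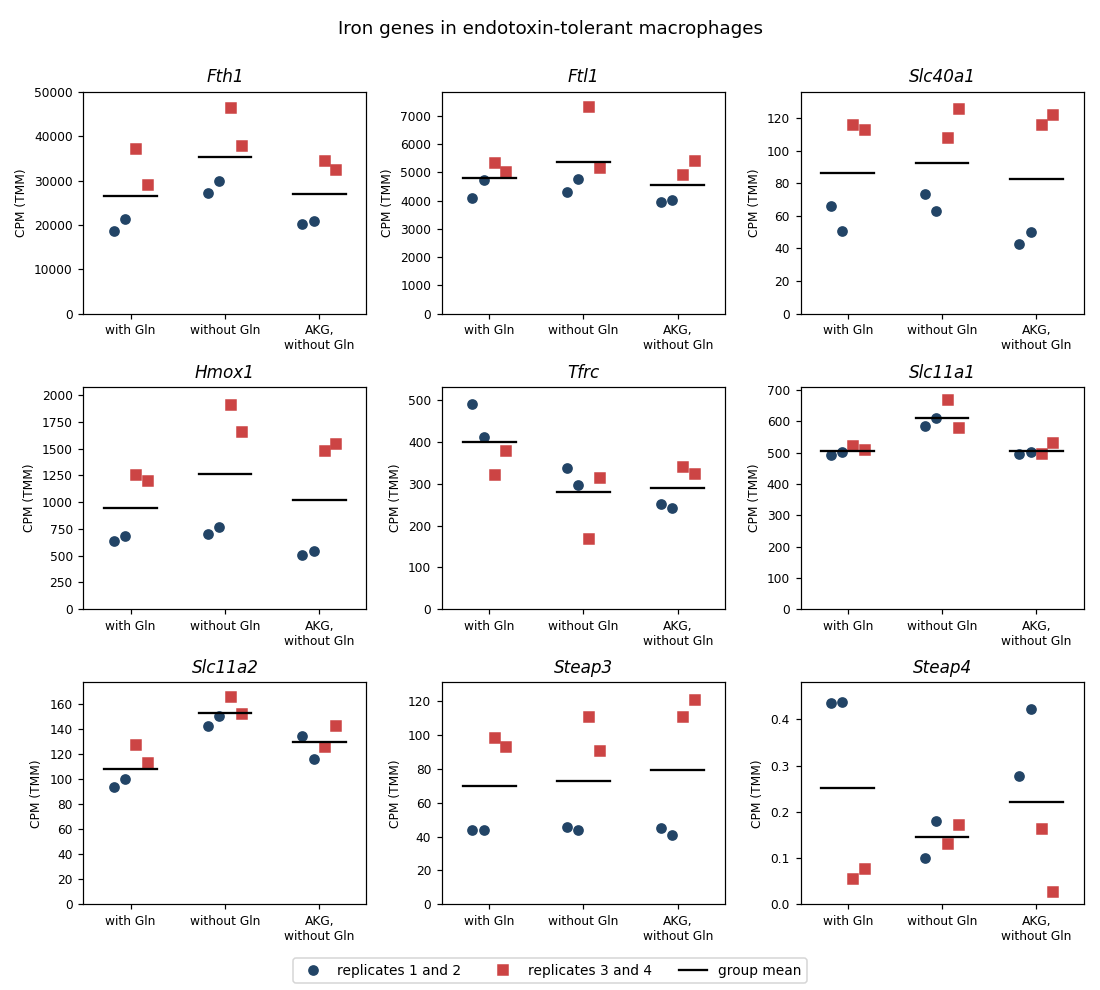
CPM (y axis, TMM-scaled, from 0) of the 9 iron genes in endotoxin-tolerant macrophages with glutamine (Gln), without it, and without it with AKG (x axis); points are libraries, circles for replicates 1 and 2, squares for 3 and 4, and bars are group means. For Fth1, Ftl1, Slc40a1, Hmox1 and Steap3 both squares lie above both circles in every group, while Slc11a1 has 4 close points a group. The share of all genes with both squares above both circles was not computed.

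Hmox1 differed more between replicates than between groups. With glutamine it had 639.8, 679, 1255 and 1199.6 CPM, without glutamine 706, 765, 1908 and 1659.8, and with AKG 505, 539.7, 1483 and 1543. Replicates 3 and 4 were above 1 and 2 in each group. Without or with the replicate block no tolerant comparison passed: without it the log2 fold changes were 0.42 without against with glutamine (SE 0.46, edgeR adjusted p = 0.734) and -0.31 with against without AKG (SE 0.46, edgeR adjusted p = 0.855). With batch as a factor both passed, at 0.34 (edgeR adjusted p = 0.0443) and -0.36 (edgeR adjusted p = 0.0434). Within replicates 3 and 4 alone the first of these was 0.56 (edgeR adjusted p = 0.0128), against 0.15 within 1 and 2 (edgeR adjusted p = 0.105). Within replicates 1 and 2 alone the second was -0.49 (edgeR adjusted p = 0.000637), against -0.23 within 3 and 4 (edgeR adjusted p = 0.258). Between AKG and glutamine the direction depended on the replicates. Within 1 and 2, AKG was lower by a log2 value of -0.34 (edgeR adjusted p = 0.00873), and within 3 and 4 the value was 0.33 (edgeR adjusted p = 0.124). The difference between these, 0.64 (SE 0.12), passed a test of interaction over data-seen pairs (edgeR adjusted p = 0.0311), as 1.61% of genes did. For the other members, and for the other 2 comparisons, where 2.45% of genes passed without against with glutamine and 0.056% with against without AKG, no such difference passed.

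Slc40a1 and Steap3 did not pass in any tolerant comparison. Slc40a1 had 65.8, 50.8, 115.4 and 112.8 CPM with glutamine, 73.5, 62.7, 107.5 and 125.5 without, and 42.6, 49.9, 115.4 and 121.9 with AKG. Steap3 had 43.6, 43.7, 98.1 and 92.9 CPM with glutamine, 45.5, 44.1, 110.7 and 90.4 without, and 45.3, 41.2, 110.3 and 120.6 with AKG. In both genes libraries 3 and 4 lay above libraries 1 and 2, and the 3 groups covered much the same range. Without the block, the 95% intervals of the log2 fold change without against with glutamine were wide. They were -0.80 to 0.995 for Slc40a1 and -0.97 to 1.09 for Steap3. With the block the values were 0.13 for Slc40a1 (SE 0.13, edgeR adjusted p = 0.544) and 0.055 for Steap3 (SE 0.084, edgeR adjusted p = 0.704).

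Tfrc had its highest mean with glutamine. Its libraries had 491, 412, 321 and 379.8 CPM with glutamine, 338, 296, 169 and 315 without, and 252, 241, 341 and 324 with AKG. The with-glutamine libraries were mostly higher, though the groups overlapped, and replicate 3 without glutamine was the lowest of the 12. The log2 fold change without against with glutamine was -0.52 (SE 0.21, edgeR adjusted p = 0.219). Within replicates 1 and 2 it was -0.51 (edgeR adjusted p = 0.00322), and AKG was lower than glutamine by a log2 value of -0.87 (edgeR adjusted p = 0.000478) and lower than no AKG by -0.36 (edgeR adjusted p = 0.0207). Within replicates 3 and 4 the values were -0.51 (edgeR adjusted p = 0.408), -0.043 (edgeR adjusted p = 0.98) and, with the opposite sign, 0.46 (edgeR adjusted p = 0.532). The ratio of Slc40a1 to Tfrc counts averaged -2.29 ± 0.79 with glutamine, -1.61 ± 0.76 without and -1.95 ± 0.55 with AKG on the log2 scale (SD, n = 4).

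Steap4 was near the detection limit in tolerant cells, with 14, 16, 2 and 3 counts with glutamine, 3, 6, 4 and 5 without, and 9, 14, 6 and 1 with AKG. Replicates 1 and 2 with glutamine had the highest counts. In the fit of replicates 1 and 2 alone, where it passed the filter, Steap4 was called lower without than with glutamine (log2 fold change -1.59, SE 0.48, edgeR adjusted p = 0.0318), from counts of 16 or fewer a library. There AKG against no AKG gave 1.28 (SE 0.51, edgeR adjusted p = 0.0966), and in replicates 3 and 4 it did not pass the filter. No tolerant library came near the counts seen after 6 h of LPS in the other table, where table and condition cannot be told apart.

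The difference between replicates 3 and 4 and replicates 1 and 2 was itself uneven over the members. In the fitted model it was 1.24 on the log2 scale for Hmox1 and for Steap3, 1.03 for Slc40a1, 0.66 for Fth1 and 0.35 for Ftl1. It was 0.17 for Slc11a2, 0.053 for Slc11a1 and -0.11 for Tfrc, beside a median of 0.0032 over all genes. Among all tested genes, the differences of Hmox1 and Steap3 ranked at percentile 93.4, Slc40a1 at 92.3, Fth1 at 89.3 and Ftl1 at 82.0. Slc11a2 ranked at percentile 69.0, Slc11a1 at 56.4 and Tfrc at 37.8. All 15 listed targets of NRF2 had a difference above 0, with a median of 1.06. NRF2 is an antioxidant factor that is also known to drive Hmox1, Fth1, Ftl1 and Slc40a1. The 7 tested stromal markers were above 0 too, with a median of 2.09. Medians of the other lists with at least 6 tested genes ran from -0.29 for macrophage markers to 0.31 for cell cycle genes. The stromal markers summed to 307 to 344 CPM in replicates 1 and 2 with glutamine and to 1622 to 1638 in 3 and 4, and to 39.1 to 164 CPM without glutamine and 80.0 to 295 with AKG. All 8 stromal markers were above 0 in each tolerant group, and 4 of the 7 tested were called lower without glutamine. With the block all 7 were lower without glutamine and 5 were higher with than without AKG, while 6 were lower with AKG than with glutamine. The part of NRF2 or of stromal cells in the members' values was not tested. In bulk RNA fewer cells of a type and less RNA per cell cannot be told apart.

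Other genes of iron handling were taken from lists, whose counts stand beside the shares of all genes given above, with LPS 22.8% higher and 29.3% lower and with IL-4 9.66% and 10.5%. Among 9 genes of iron sensing and ferritin turnover, 4 rose and 1 fell with LPS, a share called near the 52.1% of all genes. Fbxl5, which marks an iron-regulatory protein for degradation when iron is plentiful, rose from 52.5 to 249 CPM in the mean (log2 fold change 2.25, edgeR adjusted p = 0.000331), and Aco1, the gene of one of those proteins, fell by 0.75 (edgeR adjusted p = 0.00133). Pcbp1, an iron chaperone that loads ferritin, rose by 0.77 (edgeR adjusted p = 0.00474). With IL-4 only Pcbp2 of the 9 passed, at 0.66 (edgeR adjusted p = 0.00505), and in each tolerant comparison 0 of 9 did, with or without the block.

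Of 12 tested genes of other iron uptake and transport, 5 rose and 2 fell with LPS. Lcn2, which binds siderophores, rose from 0.392 to 48.1 CPM (edgeR adjusted p = 2.59e-05) and Slc39a14, a zinc and iron carrier, from 29.2 to 469 CPM (edgeR adjusted p = 2.59e-05). The mitochondrial importer Slc25a37 (mitoferrin) had the order of Fth1: 108 CPM in controls, 358 with LPS (edgeR adjusted p = 0.000178) and 30.8 with IL-4 (edgeR adjusted p = 0.000604). Without glutamine 3 of the 12 rose and 0 fell in the tolerant set, against 3 and 3 with the block. These were Slc25a37 by 0.52 (edgeR adjusted p = 0.0235), Lcn2 by 1.17 (edgeR adjusted p = 0.0197) and Mcoln1, a lysosomal channel that conducts iron, by 0.27 (edgeR adjusted p = 0.0248). With AKG, Mcoln1 fell by 0.34 (edgeR adjusted p = 0.0213), 1 of the 12, and with the block 3 fell.

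Of 19 tested genes of haem handling, 12 fell and 6 rose with LPS, and with the block 10 and 6, against 29.3% and 22.8% of all genes. Hp (haptoglobin) rose from 0.426 to 73.9 CPM (edgeR adjusted p = 2.59e-05) and Spic, a transcription factor of red-pulp macrophages, from 1.75 to 10.2 (edgeR adjusted p = 0.000138), while the haem and folate carrier Slc46a1 fell from 13.0 to 2.95 (edgeR adjusted p = 8.07e-05). With IL-4, 1 rose and 4 fell, among them Lrp1, a receptor for haem bound to haemopexin (log2 fold change -1.31, edgeR adjusted p = 0.00363). With the block 2 of 20 rose and 3 fell without glutamine in the tolerant set, and without it 1 passed: Abcg2, an exporter of haem and porphyrins, fell by 0.62 (edgeR adjusted p = 0.00814) and rose with AKG by 0.53 (edgeR adjusted p = 0.03).

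Of 6 tested genes that work with ferroportin or control hepcidin, 1 rose and 3 fell with LPS. Cp (ceruloplasmin), the ferroxidase that partners ferroportin, rose from 16.2 to 362 CPM (log2 fold change 4.49, edgeR adjusted p = 2.73e-05) in the libraries in which Slc40a1 fell. Bmp2 fell by 3.78 (edgeR adjusted p = 9.23e-05) and Neo1 by 2.27 (edgeR adjusted p = 0.000101). Hfe, a partner of the transferrin receptor, rose by 0.58 with IL-4 (edgeR adjusted p = 0.0113), 1 of 6 higher there and 1 lower (Neo1). In the tolerant set 0 of 6 passed, and with the block 3 of 6 fell without glutamine.

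Of 12 genes of iron-sulphur cluster assembly, 2 rose and 2 fell with LPS, 1 rose and 1 fell with IL-4, and 0 passed in the tolerant comparisons without the block. With it 3 rose without glutamine and 1 fell with AKG. Of 15 NRF2 targets, 8 rose and 3 fell with LPS, 0 rose and 8 fell with IL-4 (5 with the block), and 0 passed in the tolerant set. With the block 3 of the 15 rose without glutamine and 11 fell with AKG. Gsr, glutathione reductase, had the order of Fth1 and Hmox1 over the stimuli: it rose with LPS by 3.002 (edgeR adjusted p = 3.77e-05) and fell with IL-4 by 1.20 (edgeR adjusted p = 0.00216). Of 12 hypoxia targets, 10 rose and 2 fell with LPS, led by Pfkfb3, Bnip3 and Ero1l, and 0 rose and 3 fell with IL-4. Without glutamine 2 rose and 1 fell, and with the block 4 and 1. With against without AKG 2 rose and 0 fell, and with the block 5 and 0. Between AKG and glutamine 0 passed, and with the block 5 were higher with AKG and 0 lower. Cells that replicate DNA need iron for ribonucleotide reductase. Of 12 cell cycle genes, 7 fell without glutamine, 8 fell with LPS and 2 fell with IL-4, and 0 rose in any of these. With the block 9, 6 and 2 fell. With against without AKG 0 of these genes passed, with or without the block. Between AKG and glutamine 0 passed, and with the block 8 were lower with AKG.

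For 5 members, the 3 genes whose log2 CPM followed each most closely over the 12 tolerant libraries were set beside their correlations within each pair of replicates (n = 6). For Steap3 they were Psmd7, Nars and Emp2, each with a Pearson r of at least 0.99, but within replicates 1 and 2 these dropped to 0.36, 0.27 and 0.28, beside 0.96, 0.95 and 0.94 in the other pair. For Slc40a1 they were Fam171b, Adra2a and Pfn2, with r of 0.98, within replicates 1 and 2 of 0.93, 0.91 and 0.94, and within 3 and 4 of 0.64, 0.22 and 0.26. Slc11a1 was followed within both batches by Gga2 (r = 0.97 and 0.98), Grpel2 (0.97 and 0.96) and Sun2 (0.96 and 0.97), yet over the 6 stimulation libraries r was -0.73, -0.99 and -0.25. Hmox1 was followed by Setd3, Creg1 and Ppm1a, with r of 0.97, 0.97 and 0.87 within replicates 1 and 2 and 0.95, 0.89 and 0.998 within 3 and 4, and in the stimulation libraries 0.68, -0.59 and 0.94. For Tfrc they were Tubgcp4, Tanc2 and Tiparp, of which Tanc2 kept r of 0.94 and 0.98 within the batches and 0.88 in the stimulation set. These are descriptions over libraries that share batches and groups, picked as the highest among all tested genes.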

How the data were processed

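The authors deposited raw counts per gene in 2 tables. The submitters' processing notes name STAR, HTSeq and the mm10 build, and no source used here gives versions or the strand setting. Libraries were stranded TruSeq of total RNA, per the labels' protocols. The 9 genes and all lists were chosen with earlier results of these data known. Named list genes are at most 3 per list and comparison, those with the smallest p among called genes.

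Each table was fitted alone in edgeR 4.0.16 (R 4.3.3, limma 3.58.1): filterByExpr, TMM, robust quasi-likelihood F test, Benjamini-Hochberg adjustment over 12492 or 12506 genes, threshold 0.05. No covariate entered. The biological coefficient of variation was 0.271 and 0.174, and residual degrees of freedom 9 and 3. The intervals of log2 fold changes used these residual degrees alone, so they can be wider than the edgeR test beside them implies. Each SE of an edgeR log2 fold change, also in the intervals, was derived from the test. It is the absolute change divided by the square root of F. The fits were also run on simulated data with planted changes. For the tolerant set the simulated spread came from a model with the replicate block. It therefore does not show how well the main fit finds changes. Alternatives were RLE scaling, no filter, DESeq2 1.42.0, limma-voom, 2 groups alone, a replicate block, batch as a factor, each batch alone and leaving out each library. Intervals and floors cover counting error only where counts are compared.

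Same-number tolerant libraries deviated together in all 12 pairs (r 0.50 to 0.82), and libraries with another number of the same batch (1 and 2, or 3 and 4) as much (0.47 to 0.84), so the block also takes out that split. What the numbers mark is not in the labels. CPM per kilobase used GENCODE vM21 exons. Sequence searches and plots used Python 3.11.15 and matplotlib 3.10.9.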

Additional observations from a re-analysis of the deposited data

Results flagged for a closer look

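Hmox1 was flagged because its difference between AKG and glutamine in tolerant macrophages was not the same in the 2 pairs of replicates. The log2 fold change was 0.64 higher in replicates 3 and 4 than in replicates 1 and 2 (SE 0.12, edgeR interaction test, adjusted p = 0.0311). AKG libraries were lower than glutamine libraries in replicates 1 and 2 (505 and 539.7 against 639.8 and 679 CPM) and higher in 3 and 4 (1483 and 1543 against 1255 and 1199.6 CPM). The pairs were seen in these same data, so this p-value is a description only. What separates the pairs of replicates was not tested.

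Slc11a1 in AKG replicate 4 was flagged as a library far from the others of its group, at 532 CPM beside 496, 502 and 496. The group's whole range is narrow, and 1 of 27 sets of 4 libraries examined was marked, where chance marks about 1 in 20.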

How the results depend on the processing

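Over all members and comparisons, 694 alternative log2 fold changes were computed, and 590 kept their direction and their side of the threshold. With the direction kept, 34 lost and 22 gained a call. The other 48 changed sign, 0 of them where the main fit had made a call. Some of these passed in replicates 1 and 2 alone. Tfrc did for AKG against no AKG (-0.36, edgeR adjusted p = 0.0207). Hmox1 did for AKG against glutamine (-0.34, edgeR adjusted p = 0.00873). Where a cause is not evident from the smaller number of libraries or genes, the cause was not tested.

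Without against with glutamine, 587 genes and 2 members were called. DESeq2 called 1260 genes, the 2 groups alone 243 genes and 0 members, the replicate block 2707, batch as a factor 3090 genes and 4 members, replicates 1 and 2 alone 3526 and 5 members (Steap4 among them), replicates 3 and 4 alone 1670, and no filter 1 member. For AKG against no AKG (186 genes, 0 members) these were, for DESeq2 682 and 1, 2 groups alone 60 genes, replicate block 1917 and 2, batch as a factor 2312 and 3, replicates 1 and 2 alone 2908 and 5, replicates 3 and 4 alone 703 genes, and no filter 123 genes. For AKG against glutamine (0 and 0), DESeq2 called 232 genes, the replicate block 876, batch as a factor 1133 and 1 member, replicates 1 and 2 alone 1433 and 3 members, and replicates 3 and 4 alone 790 genes. Leaving out 1 library gave 229 to 468 genes and 0 to 2 members in the first comparison, 28 to 116 genes in the second, and for IL-4 against control (2518 and 5) 944 to 2751 genes and 1 to 5 members. Those omissions leave an arm of the stimulation set with 1 library, assumed to vary like the other groups.

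Signs turned as follows. In replicates 1 and 2 alone, AKG against no AKG gave -0.051 for Steap3 and -0.36 for Tfrc, and AKG against glutamine gave -0.34 for Hmox1 and -0.016 for Steap3. In replicates 3 and 4 alone, Slc40a1 gave 0.032 and 0.086 in these comparisons and Ftl1 0.023 in the second. Hmox1 between AKG and glutamine gave -0.021 with limma-voom, -0.019 with the replicate block and -0.019 with batch as a factor. Ftl1 between IL-4 and LPS gave -0.052 with RLE scaling and with DESeq2. Over omissions of 1 library, values without against with glutamine spanned -0.015 to 0.27 for Ftl1, -0.086 to 0.28 for Slc40a1 and -0.21 to 0.29 for Steap3. For AKG against no AKG they spanned -0.41 to 0.052 for Slc40a1, -0.15 to 0.40 for Steap3 and -0.13 to 0.15 for Tfrc. For AKG against glutamine they spanned -0.11 to 0.24 for Fth1, -0.16 to 0.33 for Hmox1, -0.024 to 0.027 for Slc11a1, -0.32 to 0.15 for Slc40a1 and -0.085 to 0.41 for Steap3. Tfrc with LPS against control spanned -0.81 to 0.65, and Ftl1 between IL-4 and LPS -0.025 to 0.087.

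The replicate block added Fth1 without against with glutamine, Fth1 and Slc11a1 for AKG against no AKG, and took away Ftl1 for IL-4; it changed no other call of a member. In the stimulation set IL-4 libraries deviated with the other number (r = -0.66 between same-numbered control and IL-4 libraries); with the pairing crossed, an alternative chosen after seeing the data, 3965 genes and 6 members were called for IL-4 against control. With the longest transcript as length, the Fth1 to Ftl1 ratio per kilobase was 3.57 in tolerant cells with glutamine, 1.64 in controls, 1.03 with IL-4 and 4.89 with LPS. For Steap4, counts near 0 limit what can be said outside LPS.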
